A study of Rattus norvegicus with 8 samples.

Results

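Interferon-stimulated genes are the genes that cells switch on when they sense interferon, and they were followed here in the epitrochlearis, a forelimb muscle of the rat made up mostly of fast fibres. The group was a list of 33 genes, and a gene counted as measured when at least 1 probe set carried its symbol and no other symbol. By that rule 29 of the 33 genes were measured, by 37 probe sets, out of 14217 genes on the array. The list held 21 genes taken as targets mainly of type I interferon and 12 taken as targets mainly of type II interferon, of which 19 and 10 were measured. The levels of Oasl2, Xaf1, Gbp5 and Ifi47 were not analysed here, and these 4 genes enter only the counts of promoter motifs.

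The 8 arrays came from 8 male Sprague-Dawley rats, 1 array per rat, and the labels call each a biological replicate. The WPH rats (n = 4) were given carbohydrate with whey protein hydrolysate, which is milk whey protein cut into peptides by enzymes, and the AAM rats (n = 4) were given carbohydrate with a mixture of amino acids. Both meals were given by gavage straight after 2 h of swimming and held 44 kJ, about 15% of daily energy needs. All rats were 6 weeks old per the labels, had swum on 3 days beforehand and had been held to 5 g of diet the day before, so no unexercised or unfed rat was measured. The sources used here do not give the barrel in which each rat swam, the array batch or the time of sampling after the meal.

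Type I interferons (the alpha and beta interferons) signal through a receptor that leads to the binding of transcription factors, STAT2 and IRF9 among them, to a sequence called the interferon-stimulated response element (ISRE). Type II interferon (interferon gamma) acts mainly through another element, the gamma-activated sequence (GAS). The products of the target genes block steps of virus growth, present antigen and attract lymphocytes. In skeletal muscle these genes are known for their activity in inflammatory muscle disease, and muscle fibres as well as resident immune cells and vessels can express them.

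Promoter windows of 6 members are shown because 5 of these genes had the widest ranges over the arrays among the measured genes whose window holds an ISRE core, while Irf1 was the member with the smallest p-value between the meals and holds a GAS match. Each window runs 5′ to 3′ on the gene's strand, from 250 bases before the start site to 50 bases from it, and comes from RefSeq on the GRCr8 assembly. Capitals mark the ISRE core (the letters GAAA, then any 2 bases, then GAAA, read on both strands) in Irf7, Bst2, Ifit3, Gbp2 and Ifi27, and the GAS match (TTCNNNGAA, which reads the same on both strands) in Irf1. The windows lie at chr1:205799974-205800273 on the minus strand for Irf7, chr16:18254918-18255217 minus for Bst2, chr1:241527076-241527375 plus for Ifit3, chr2:234005477-234005776 plus for Gbp2, chr6:128355062-128355361 plus for Ifi27 and chr10:38417685-38417984 plus for Irf1.
Irf7: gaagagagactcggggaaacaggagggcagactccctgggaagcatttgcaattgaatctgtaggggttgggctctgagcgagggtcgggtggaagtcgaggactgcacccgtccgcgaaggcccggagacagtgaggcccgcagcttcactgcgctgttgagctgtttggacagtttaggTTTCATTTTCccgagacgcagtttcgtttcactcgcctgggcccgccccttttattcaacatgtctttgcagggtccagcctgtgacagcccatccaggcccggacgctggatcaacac
Bst2: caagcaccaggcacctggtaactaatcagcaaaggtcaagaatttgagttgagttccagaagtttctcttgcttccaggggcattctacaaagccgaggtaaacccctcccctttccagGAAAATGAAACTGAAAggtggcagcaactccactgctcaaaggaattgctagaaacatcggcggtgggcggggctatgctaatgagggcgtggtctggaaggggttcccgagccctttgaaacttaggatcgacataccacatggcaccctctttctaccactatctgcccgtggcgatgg
Ifit3: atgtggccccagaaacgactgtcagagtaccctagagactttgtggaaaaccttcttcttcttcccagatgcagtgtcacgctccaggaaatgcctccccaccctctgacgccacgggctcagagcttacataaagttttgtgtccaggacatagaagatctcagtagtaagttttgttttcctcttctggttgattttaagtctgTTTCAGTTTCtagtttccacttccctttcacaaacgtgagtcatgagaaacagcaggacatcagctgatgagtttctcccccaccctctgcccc
Gbp2: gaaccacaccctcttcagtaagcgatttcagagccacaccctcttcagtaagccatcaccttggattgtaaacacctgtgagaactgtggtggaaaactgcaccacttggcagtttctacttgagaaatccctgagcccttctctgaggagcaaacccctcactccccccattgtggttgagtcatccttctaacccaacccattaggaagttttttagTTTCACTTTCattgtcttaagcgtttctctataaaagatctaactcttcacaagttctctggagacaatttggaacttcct
Ifi27: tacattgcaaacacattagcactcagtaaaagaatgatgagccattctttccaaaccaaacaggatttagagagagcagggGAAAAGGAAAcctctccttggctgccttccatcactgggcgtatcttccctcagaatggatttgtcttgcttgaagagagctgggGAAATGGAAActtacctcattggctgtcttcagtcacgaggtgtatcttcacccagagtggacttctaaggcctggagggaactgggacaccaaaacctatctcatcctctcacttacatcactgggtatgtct
Irf1: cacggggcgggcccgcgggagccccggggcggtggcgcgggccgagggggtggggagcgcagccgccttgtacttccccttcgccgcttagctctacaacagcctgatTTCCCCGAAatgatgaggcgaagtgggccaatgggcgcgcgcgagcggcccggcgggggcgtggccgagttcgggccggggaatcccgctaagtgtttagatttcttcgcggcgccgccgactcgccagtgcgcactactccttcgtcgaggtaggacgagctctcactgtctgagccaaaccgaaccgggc
The match lies on the opposite strand of the gene in Irf7, Ifit3 and Gbp2, starting 69, 44 and 31 bases upstream of the start site. Bst2 holds a pair of overlapping cores starting 131 and 125 bases upstream, and Ifi27 holds separate cores starting 169 and 84 bases upstream. The Irf1 match starts 142 bases upstream.

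Promoter windows were at hand for 28 of the 33 listed genes, and none was found for Ifit1, Ifit2, Mx2, Isg15 and Usp18. An ISRE core was found in 19 of the 28 windows (67.9%), against 1312 of 33469 promoter windows of the same length in the whole table (3.92%). The share was alike in both classes, 11 of 16 type I targets (68.8%) and 8 of 12 type II targets (66.7%). A GAS match was found in 10 of 28 windows (35.7%), against 8.87% of all windows. Of the type I targets 4 of 16 (25%) held one, and of the type II targets 6 of 12 (50%). Both motifs were found in 6 of 28 windows (21.4%), against 0.514% of all windows. They overlapped in 1 window, that of Bst2, where the GAS match starts 137 bases upstream. These counts describe letters in a window and do not show binding, and a window without a match says only that these letters are not in it.

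**Figure D1:**
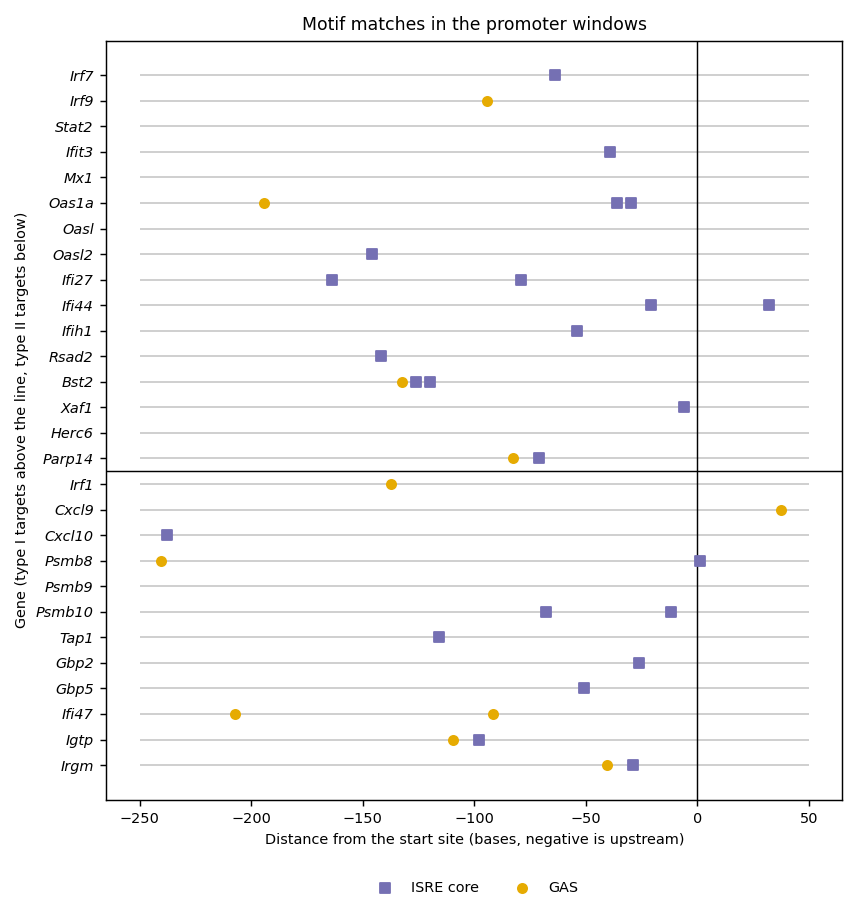
Distance in bases from the gene's start site (horizontal axis, negative upstream) of each ISRE core (squares) and GAS match (circles) in the promoter windows of 28 listed genes, 1 grey line per window. ISRE cores were found in 19 windows and GAS matches in 10, in type I targets (above the black line) and in type II targets (below it).

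The deposited values lay on a log2-like scale with a median of 6.66 on every array. Differences between arrays were minute, with a median SD of 3.69e-06 per probe set over the 8 arrays, so a deposited difference is not a fold change. Sizes are therefore given in deposited units and as a standardized difference, the WPH mean less the AAM mean over the pooled SD of both groups. The 12 skeletal muscle markers lay at percentiles 98.6 to 100 of all probe set levels. One array stood apart in the genes described here, AAM replicate 3. It is named before the results because it moves most of them, and the counts and medians of the meal difference are given with and without it.

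AAM replicate 3 had the highest level of the 8 arrays for 27 of the 29 genes (93.1%), where it was the highest array for 18.6% of all 14217 genes. The exceptions were Ifit1, highest in AAM replicate 2, and Irf1, highest in WPH replicate 1. Its level lay over 3 SD of the other 7 arrays above their mean for 26 of the 29 genes, where 4.42% of all genes had such a level. The median of this distance was 6.73 SD over the 29 genes and 0.0185 SD over all genes. It was over 10 SD for 6 of them: Mx1 (20.7), Oasl (16.8), Psmb9 (13), Gbp2 (12.4), Herc6 (11.6) and Psmb10 (11.6). In whole muscle, more cells of a type and more RNA per cell cannot be told apart.

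Genes listed as type I targets and genes listed as type II targets both carried this pattern. Many genes respond to both kinds of interferon, and 8 of 12 windows of type II targets held an ISRE core. The split by class therefore cannot tell the kinds of interferon apart, and whether any interferon acted was not tested. AAM replicate 3 was the highest array for 18 of 19 type I targets (94.7%) and 9 of 10 type II targets (90%). Its distance above the mean of the other arrays had a median of 6.38 SD in type I targets and 7.34 SD in type II targets, and it passed 3 SD in 17 of 19 and 9 of 10. Among type II targets the distance was smallest for Irf1 (0.365 SD) and Cxcl9 (3.4 SD). In deposited units the type I targets were spread more widely, with a median range over the 8 arrays of 0.0438, against 0.0135 for type II targets and 1.59e-05 for all genes. Of the 29 genes, 24 had a range among the widest 5% of all genes, 16 of them type I and 8 type II. The ranges of the 5 others were 6.95e-04 for Stat2, 5.75e-04 for Cxcl10, 7.88e-05 for Irf1, 1.96e-05 for Ifih1 and 3.77e-06 for Ifit1.

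**Figure D2:**
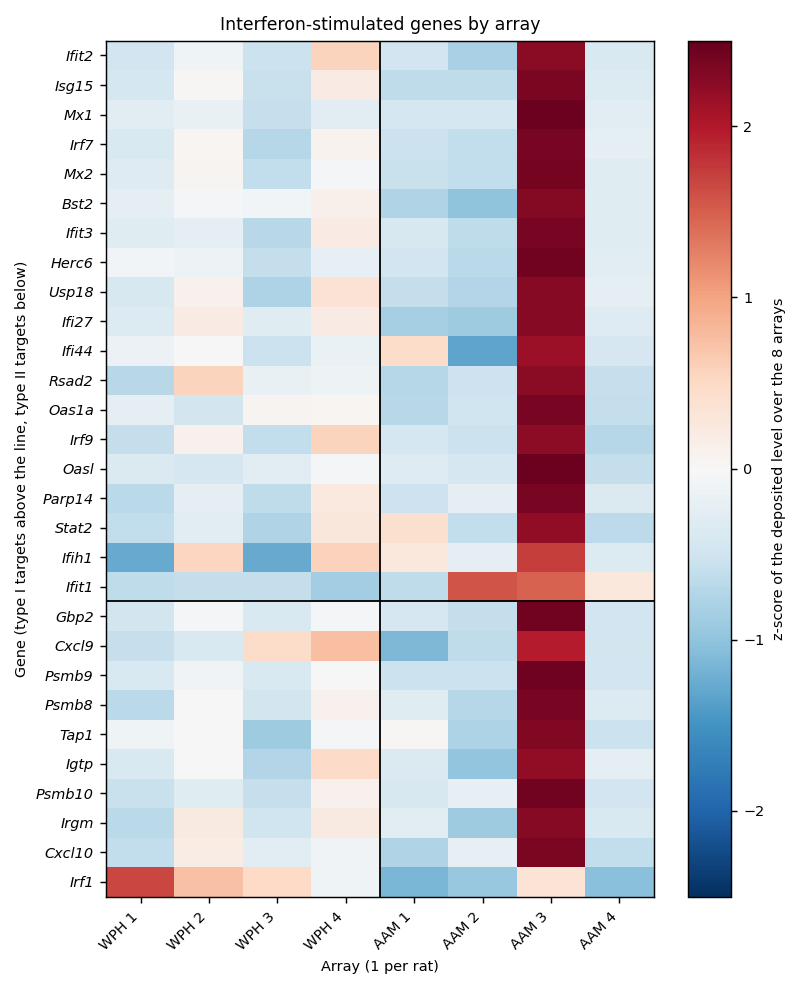
Level of each measured interferon-stimulated gene (rows) on each array (columns, 4 WPH then 4 AAM), as a z-score over the 8 arrays; genes are ordered by range within type I (above the line) and type II (below it). The column of AAM replicate 3 is the darkest red in 27 of 29 rows, the exceptions being Ifit1 and Irf1.

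Among the regulators, Irf7, the transcription factor that amplifies the type I response, had deposited levels of 7.1437, 7.1780, 7.1176 and 7.1799 on WPH arrays 1 to 4 and 7.1320, 7.1260, 7.3600 and 7.1542 on AAM arrays 1 to 4. Only AAM replicate 3 lay outside the span of the others, and the remaining AAM arrays lay among the WPH arrays. Irf9 and Stat2, whose products act together at the ISRE, ranged over 0.00356 and 6.95e-04 and were both highest in AAM replicate 3, which lay 5.44 and 5.37 SD above the mean of the other 7.

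The Ifit genes encode proteins that bind foreign RNA or hold back its translation. Ifit2 had the widest range of all members, with levels of 7.8471, 7.8826, 7.8415 and 7.9441 on the WPH arrays and 7.8467, 7.8148, 8.1061 and 7.8560 on the AAM arrays. Ifit3 had 6.6852, 6.6879, 6.6703 and 6.7057 on the WPH arrays and 6.6817, 6.6723, 6.7907 and 6.6855 on the AAM arrays. In both genes AAM replicate 3 was highest and WPH replicate 4 second, and the groups overlapped. Ifit1, which lies in the same cluster on chromosome 1, hardly varied and was high in AAM replicates 2 and 3, with z-scores of 1.57 and 1.48. Its z-scores on the WPH arrays lay between -0.86 and -0.59.

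Mx1 and Mx2 encode dynamin-like GTPases that block virus replication, and they lie close together on chromosome 11. Mx1 had 6.1841, 6.1923, 6.1600 and 6.1862 on the WPH arrays and 6.1727, 6.1724, 6.4138 and 6.1873 on the AAM arrays. Mx2 had 6.4169, 6.4388, 6.4004 and 6.4331 on the WPH arrays and 6.4042, 6.4014, 6.5684 and 6.4181 on the AAM arrays. Apart from AAM replicate 3, the arrays of both genes lay close together, within 0.0323 for Mx1 and 0.0384 for Mx2, and WPH replicate 3 was the lowest.

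Isg15 encodes a ubiquitin-like protein that is attached to other proteins, Usp18 the protease that removes it, and Herc6 the ligase known in the mouse to attach it. Isg15 had 7.0615, 7.1016, 7.0502 and 7.1191 on the WPH arrays and 7.0419, 7.0432, 7.3128 and 7.0694 on the AAM arrays. Usp18 had 6.5057, 6.5182, 6.4969 and 6.5249 on the WPH arrays and 6.5013, 6.4976, 6.5717 and 6.5103 on the AAM arrays. Herc6 had 6.3757, 6.3743, 6.3612 and 6.3720 on the WPH arrays and 6.3647, 6.3589, 6.4444 and 6.3700 on the AAM arrays. All 3 genes were highest in AAM replicate 3 and had overlapping groups. WPH replicate 4 was second for Isg15 and Usp18, and WPH replicate 1 for Herc6.

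Bst2, or tetherin, holds budding virus particles at the cell surface. Its levels were 8.4531, 8.4611, 8.4603 and 8.4673 on the WPH arrays and 8.4339, 8.4237, 8.5505 and 8.4509 on the AAM arrays. The WPH arrays lay between AAM replicate 3 and the other AAM arrays. Ifi27, an interferon-induced membrane protein gene, had 9.7522, 9.7599, 9.7527 and 9.7597 on the WPH arrays and 9.7455, 9.7447, 9.7885 and 9.7525 on the AAM arrays. Ifi44 had 6.7805, 6.7825, 6.7757 and 6.7802 on the WPH arrays and 6.7880, 6.7660, 6.8088 and 6.7772 on the AAM arrays. For Ifi44, and for no other gene of the 12 with the widest range, the AAM group held the 2 highest arrays.

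The remaining type I targets had narrower ranges. Rsad2 (viperin, an enzyme that makes an antiviral nucleotide) ranged over 0.0302, Oas1a (an oligoadenylate synthetase, which activates an RNase) over 0.0141, Oasl over 0.00298 and Parp14 (an ADP-ribosyltransferase) over 0.00183. All 4 were highest in AAM replicate 3, by 5.69, 8.83, 16.8 and 8.61 SD above the mean of the other arrays. Ifih1, which encodes a cytoplasmic sensor of double-stranded RNA, had the highest array at 2.55 SD.

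**Figure D3:**
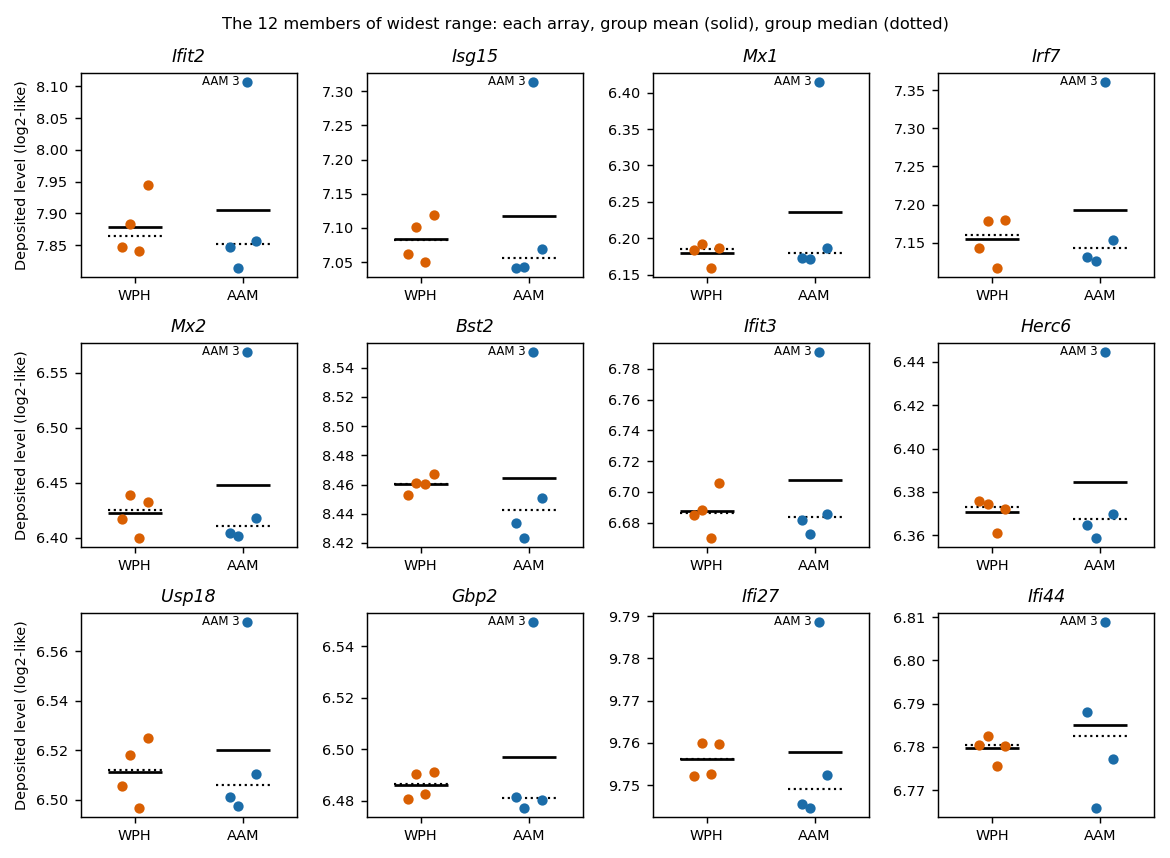
Deposited level (log2-like, vertical axes differ between panels and do not start at 0) of the 12 members of widest range on each array, WPH left and AAM right, with the group mean (solid line) and group median (dotted line). AAM replicate 3 lies above every other point in all 12 panels and lifts the AAM mean above the AAM median.

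Among type II targets, Gbp2, a guanylate-binding GTPase of defence inside cells, had the widest range. Its levels were 6.4806, 6.4904, 6.4825 and 6.4913 on the WPH arrays and 6.4816, 6.4774, 6.5493 and 6.4803 on the AAM arrays. The next were Cxcl9, a chemokine that attracts T cells (range 0.0279), and Psmb9 and Psmb8, catalytic subunits of the immunoproteasome (0.0278 and 0.0196). Tap1, the transporter of peptides for class I antigen presentation, ranged over 0.014 and Igtp, an immunity-related GTPase, over 0.0129. Psmb8, Tap1 and Psmb9 are adjacent on chromosome 20, and AAM replicate 3 was highest for each. The immunoproteasome subunit Psmb10 ranged over 0.00115, the GTPase gene Irgm over 0.00105 and the chemokine gene Cxcl10 over 5.75e-04. The subunits that Psmb8 and Psmb10 replace in the standard proteasome, encoded by Psmb5 and Psmb7, had ranges of 3.26e-06 and 5.63e-05.

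Irf1, a transcription factor induced by interferon gamma, did not share the pattern. Its z-scores over the 8 arrays were 1.67, 0.74, 0.49 and -0.10 on the WPH arrays and -1.15, -0.95, 0.34 and -1.04 on the AAM arrays. Only AAM replicate 3 overlapped with the WPH arrays. The whole range was 7.88e-05 in deposited units.

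Members varied together over the arrays, and less closely without AAM replicate 3. Pearson's r between 2 genes had a median of 0.94 (quartiles 0.84 and 0.97) over the 406 pairs on 8 arrays, and of 0.56 (0.28 and 0.74) on the 7 arrays without it. The median was 0.93 among type I targets and 0.94 among type II targets, and 0.52 and 0.53 without that array. These are descriptions over few arrays, and the genes share every array. Without AAM replicate 3, mean z-scores of the 29 genes over the 7 arrays were -0.21, 0.76, -0.44 and 1.19 on WPH arrays 1 to 4 and -0.36, -0.69 and -0.24 on AAM arrays 1, 2 and 4. WPH replicates 4 and 2 were thus high and the other 5 arrays low. WPH replicate 4 was the highest of the 7 arrays for 17 of 29 genes. The lowest of the 8 arrays was AAM replicate 2 for 9 genes, WPH replicate 3 for 8 and AAM replicate 1 for 7.

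The meal comparison asks whether muscle answers peptides differently from free amino acids. No gene of the list passed the test (limma, Benjamini-Hochberg adjusted p = 1 for each of the 29), as no probe set of the 31042 did (0%, smallest adjusted p = 0.525). At an unadjusted p below 0.05 limma called 2 of the 29 genes, Irf1 and Ifit1, and 1110 probe sets (3.58%). In none of the 29 genes were the groups free of overlap, as they were for 2.23% of probe sets.

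The direction of the meal difference depended on whether means or medians were taken. By the group means 27 of 29 genes were lower after WPH than after AAM, where 53.9% of all genes were lower, and Irf1 and Cxcl9 were higher. By the group medians 23 of 29 were higher after WPH, where 46.8% of all genes were higher, and Stat2, Ifit1, Ifi44, Ifih1, Parp14 and Psmb10 were lower. Mean and median differed in sign for 21 of 29 genes, where 14.9% of all genes had such a reversal. Both classes showed it, in 14 of 19 type I targets and 7 of 10 type II targets. Without AAM replicate 3, 26 of 29 genes were higher after WPH by the means as well, where 47.3% of all genes were, and Stat2, Ifit1 and Ifih1 were lower. Leaving out the highest array of 27 of the 29 genes raises WPH minus AAM for them in any case. That array was highest for 18.6% of all genes, so their share is not a like background. On the arrays left, mean z-scores of the members were 1.19 and 0.76 on WPH replicates 4 and 2. They were -0.21 and -0.44 on WPH replicates 1 and 3, among the AAM arrays.

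For Isg15 the WPH arrays averaged 7.0831 ± 0.0326 and the AAM arrays 7.1168 ± 0.131 (SD, n = 4 each), while the medians were 7.0815 for WPH and 7.0563 for AAM. The difference WPH minus AAM was thus -0.0337 by means and 0.0252 by medians. Mx1 averaged 6.1807 ± 0.0142 after WPH and 6.2366 ± 0.118 after AAM, with medians of 6.1852 for WPH and 6.1800 for AAM. The difference in Mx1 was -0.0559 by means, 0.00516 by medians and 0.00318 by means without AAM replicate 3. For Bst2 the means were 8.4604 ± 0.0058 after WPH and 8.4648 ± 0.0583 after AAM, and the medians 8.4607 for WPH and 8.4424 for AAM. Without AAM replicate 3 the mean difference was 0.0316 for Isg15 and 0.0243 for Bst2. The spread of the AAM group exceeded that of the WPH group in these 3 genes, and the mean differences over all 8 arrays were smaller than the AAM spread.

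In the other genes of widest range the same reversal stood in all but Ifi44. Irf7 differed by -0.0382 by means and 0.0177 by medians, Ifit2 by -0.0271 and 0.0134, Ifit3 by -0.0203 and 0.00297, and Mx2 by -0.0257 and 0.0139. For Herc6 the pair of values was -0.0137 by means and 0.00581 by medians, for Usp18 -0.00879 and 0.00613, for Ifi27 -0.00164 and 0.0072 and for Gbp2 -0.0109 and 0.00547. Ifi44 was lower after WPH either way, by -0.00527 and -0.00224. By means without AAM replicate 3 the difference was 0.0174 for Irf7, 0.0396 for Ifit2, 0.00747 for Ifit3, 0.0144 for Mx2, 0.00628 for Herc6, 0.00836 for Usp18, 0.00858 for Ifi27, 0.00643 for Gbp2 and 0.00266 for Ifi44, so all 9 were then higher after WPH.

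Of the 8 type I targets with narrower ranges, 4 showed the reversal. These were Rsad2 (-0.00222 by means and 0.00398 by medians), Oas1a (-0.00131 and 0.0021), Irf9 (-3.27e-04 and 2.90e-04) and Oasl (-5.39e-04 and 5.96e-05). Parp14 (-3.85e-04 and -7.97e-05), Stat2 (-1.60e-04 and -8.13e-05), Ifih1 (-4.65e-06 and -2.49e-06) and Ifit1 (-2.08e-06 and -2.31e-06) were lower after WPH by both measures on these probe sets. Among the type II targets the antigen presentation genes Psmb9 (-0.00405 and 0.00256), Psmb8 (-0.00321 and 6.82e-04) and Tap1 (-0.00227 and 7.67e-04) reversed, while Psmb10 (-2.58e-04 and -5.05e-05) was lower by both. The GTPase genes Igtp (-0.00127 and 4.86e-04) and Irgm (-1.21e-04 and 6.40e-05) and the chemokine gene Cxcl10 (-7.31e-05 and 4.13e-05) reversed as well. Its neighbour Cxcl9 was higher after WPH by both measures (0.00112 and 0.0052), as was Irf1 (3.91e-05 and 4.50e-05). Parentheses give WPH minus AAM in deposited units, by means first and by medians second, on the probe set that stood for each gene.

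The standardized difference by means had a median of -0.41 over the 29 genes, -0.44 in type I targets, -0.39 in type II targets and -0.06 over all genes. Among the 12 genes with the widest range it lay between -0.66 for Mx1 (95% interval -2.07 to 0.80) and -0.10 for Bst2 (-1.49 to 1.29). Ifit2 had -0.27 (-1.65 to 1.14), Isg15 -0.35 (-1.74 to 1.06) and Gbp2 -0.44 (-1.83 to 0.98). Every one of these intervals held 0. Without AAM replicate 3 the median was 0.95 over the 29 genes, 0.95 in type I and 0.90 in type II targets, and -0.06 over all genes. It was then 2.48 for Bst2, 2.25 for Oas1a, 2.01 for Ifi27 and 1.99 for Psmb9. Bst2, Oas1a, Psmb9 and Irf1 then lay higher on every WPH array than on the 3 remaining AAM arrays, 4 of 29 genes where 2.34% of all genes did so. The array left out was the one high in most members, so neither this share nor the next is a like background. By limma without that array 5 of 29 genes had an unadjusted p below 0.05 (4.44% of probe sets), and none passed the adjustment (smallest adjusted p of a member 1, of all probe sets 0.716).

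**Figure D4:**
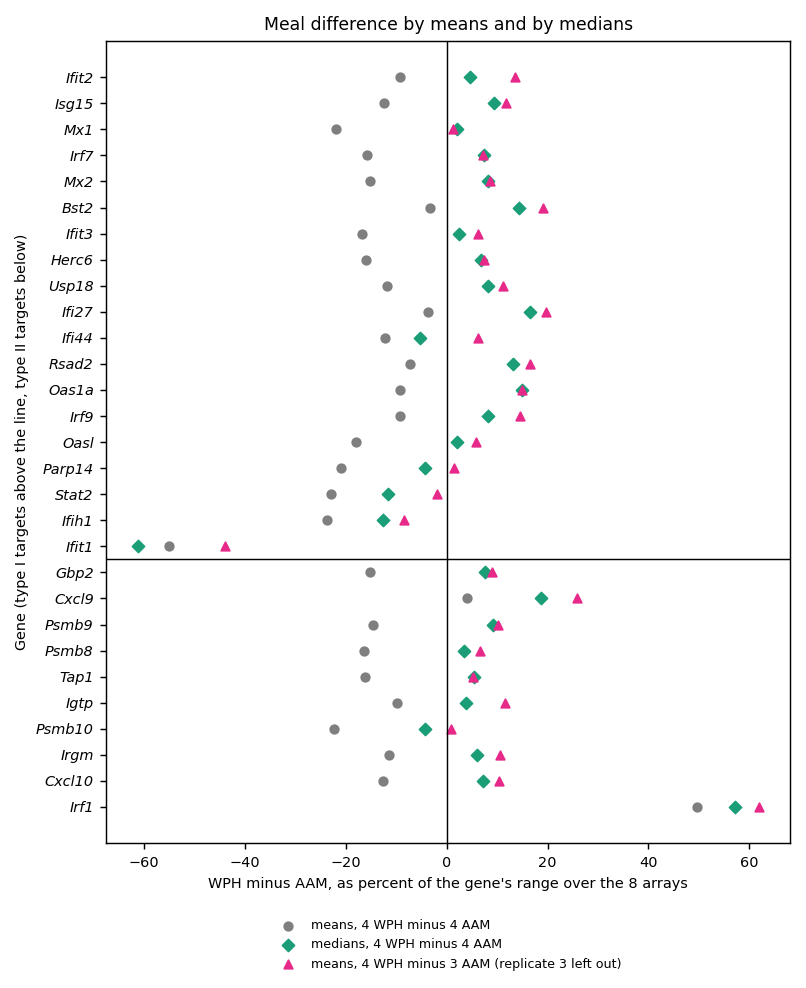
Meal difference (WPH minus AAM, as percent of the gene's range over the 8 arrays) of each member by means (grey circles), by medians (green diamonds) and by means without AAM replicate 3 (pink triangles), with type I targets above the line and type II targets below it. Grey circles lie left of 0 for 27 genes, while diamonds lie right of 0 for 23 and triangles for 26.

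The 4 members with the smallest p-values between the meals all had narrow ranges. Irf1 was higher after WPH by a standardized difference of 1.95 (95% interval 0.14 to 3.65, limma unadjusted p = 0.0256, adjusted p = 1). It was 0.50 with quantile normalization and 1.24 with each array centred on its median. The exact two-sided permutation p for Irf1 was 0.0571, where 0.0286 is the smallest that 4 against 4 arrays allow, and without AAM replicate 3 the standardized difference was 3.04. Ifit1 was lower after WPH by -1.78 (-3.43 to -0.03, limma unadjusted p = 0.0473, adjusted p = 1, exact permutation p = 0.114), and by -0.46 with quantile normalization and -0.61 with median centring. AAM replicate 1 lay at the z-score of WPH replicate 1, -0.64, and AAM replicates 2 to 4 above all WPH arrays. Ifih1 had -0.71 (-2.12 to 0.76, limma unadjusted p = 0.333) and Stat2 -0.68 (-2.09 to 0.78, limma unadjusted p = 0.35), which was -1.24 with quantile normalization. Ifih1 was low in WPH replicates 1 and 3, with z-scores of -1.26 in both. No member but Irf1 and Ifit1 had an interval that left out 0, and neither held the adjustment over all probe sets.

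A second probe set was present for 8 of the 29 genes, and AAM replicate 3 was the highest array on 6 of these 8. The second probe set of Ifit2 ranged over 0.209, and that of Cxcl9 over 0.0269, close to the 0.0279 of the first. The second probe sets of Mx2 and Tap1 ranged over 1.95e-05 and 5.56e-06 and were highest in AAM replicate 2. For these 2 genes the probe sets thus disagreed on the pattern. The meal difference by medians changed sign between the probe sets of Stat2, Parp14, Mx2, Tap1 and Igtp. On the second probe set WPH was higher for Stat2 and Parp14 (8.87e-05 and 9.11e-06). It was lower for Mx2, Tap1 and Igtp (-7.73e-06, -4.06e-06 and -4.41e-07), with standardized differences by means of -1.06, -2.44 and -0.38. By means without AAM replicate 3 these second probe sets differed by -8.33e-06, -3.42e-06 and 2.49e-07. The second probe set of Stat2 had the wider range, 0.00247, and differed by 2.13e-04 by means without AAM replicate 3, against -1.32e-05 on the first.

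Further interferon targets outside the list behaved in part like the members. AAM replicate 3 was highest for 28 of 38 further type I targets (73.7%) and 17 of 30 further type II targets (56.7%), against 18.6% of all genes. Ifi27l2b, a relative of Ifi27, had the widest range of the further type I targets, with levels of 8.0331, 8.1101, 7.9993 and 8.0661 on the WPH arrays and 8.0121, 7.9776, 8.4124 and 8.0260 on the AAM arrays. Slfn4, a Schlafen gene, ranged over 0.374 and Ddx60, a helicase gene of antiviral signalling, over 0.227. Both were highest in AAM replicate 3. Among further type II targets Gbp7 ranged over 0.0714, Gbp4 over 0.0383 and Irgm2, an immunity-related GTPase gene, over 0.0311, all highest in the same array. Among these further type II targets, genes of the major histocompatibility complex (RT1) were split. RT1-Bb, the next widest at 0.0239, and RT1-DMa were highest in WPH replicate 3, and RT1-Ba, RT1-Da and RT1-Db1 in WPH replicate 2. RT1-DMb and Cd74 were highest in AAM replicate 3, Ciita in AAM replicate 2 and Ido1 in WPH replicate 3. B2m, Tap2, Tapbp, Psme1 and Nlrc5 were also highest in AAM replicate 3, and Psme2 in AAM replicate 1. By means 31 of the 38 type I targets and 17 of the 30 type II targets were lower after WPH, where 53.9% of all genes were. By medians 25 of 38 and 16 of 30 were higher, where 46.8% of all genes were, so both counts of the type II targets were near those of all genes. Without AAM replicate 3, 31 of 38 and 21 of 30 were higher by means, where 47.3% of all genes were, a share that is again not a like background.

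As lists, the upstream genes that were measured did not share the pattern. AAM replicate 3 was highest for 1 of 7 measured interferon and interferon-inducing cytokine genes, 1 of 9 receptor and kinase genes and 2 of 10 genes of nucleic acid sensing. Ifnb1 (interferon beta) ranged over 4.22e-06 and Ifng (interferon gamma) over 8.40e-06, and they were highest in AAM replicate 2 and WPH replicate 2. Of 14 listed ligand genes 7 were measured, with no interferon alpha gene among them. Levels of Ifnb1, Ifng and Ifnk lay at percentiles 22.2, 0.66 and 7.56 of all probe set levels, so a change in them could have been missed. Among the ligand genes Il15 ranged over 0.0017, Il18 over 2.29e-05 and Il12a over 1.33e-05. Il15, a cytokine that muscle makes in quantity, lay lowest in AAM replicate 3, at 8.9887 where the other arrays had 8.9896 or more. The receptor and kinase genes ranged over at most 2.73e-05, the value of Ifngr1, a subunit of the interferon gamma receptor, followed by Jak2 (1.39e-05) and Il10rb (1.11e-05). Of the sensing genes the kinase gene Tbk1 ranged over 0.00223 and was low in AAM replicate 3. Tlr7, a receptor for single-stranded RNA, and the nuclease gene Trex1 were highest there and ranged over 1.52e-04 and 4.14e-05. An mRNA level does not measure secreted protein, and these arrays carry no value for it.

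Markers of other cell types were set beside the members. AAM replicate 3 was the highest array for 3 of 13 macrophage markers, 3 of 16 T and NK cell markers, 1 of 3 B cell markers, 1 of 4 dendritic cell markers, 0 of 6 neutrophil markers, 4 of 8 endothelial markers (50%) and 1 of 12 skeletal muscle markers, where it was highest for 18.6% of all genes. The shares of macrophage markers (23.1%) and of T and NK cell markers (18.8%) were near that of all genes. The mean z-score on that array was 0.43 for macrophage markers, 0.27 for T and NK cell markers, 0.93 for dendritic cell markers, 0.64 for endothelial markers, -0.81 for neutrophil markers and -0.72 for skeletal muscle markers, against 2.20 for the 29 genes. Summed macrophage marker levels ran from 104.175 to 104.177 on the WPH arrays and from 104.175 to 104.178 on the AAM arrays, the highest being AAM replicate 3. Endothelial sums ran from 65.9318 to 65.9327 on the WPH arrays and from 65.9317 to 65.9330 on the AAM arrays. The T and NK cell sum was 101.213 on every array to the digits printed. Dendritic cell sums ran from 28.3579 to 28.3580 on the WPH arrays and from 28.3578 to 28.3580 on the AAM arrays, and neutrophil sums from 37.4283 to 37.4286 on the WPH arrays and from 37.4281 to 37.4286 on the AAM arrays. B cell sums ran from 18.8942 to 18.8943 in both groups, and skeletal muscle sums from 161.098 to 161.099 on the WPH arrays and from 161.097 to 161.098 on the AAM arrays. These sums differed between arrays in the last printed digits only. The median range per gene was 9.40e-05 for macrophage and 2.11e-04 for endothelial markers, against 1.59e-05 for all genes and 0.0278 for the 29 genes. As the scale of the deposited values is unknown, the sums cannot show that cell content was the same on all arrays. The sums of the 29 genes ran from 201.952 to 202.368 on the WPH arrays and from 201.862 to 203.778 on the AAM arrays.

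Among single markers, the macrophage genes Cd14 and C1qa ranged over 0.00205 and 8.10e-04 and were highest in AAM replicate 3, and Cd163 ranged over 5.31e-04. The endothelial genes Vwf, Kdr and Cldn5 ranged over 0.00186, 6.98e-04 and 3.42e-04, and AAM replicate 3 was the highest array for Kdr and the lowest for Vwf. It was also highest for Emcn, Tek and Tie1, by 3.23, 1.65 and 1.32 SD above the mean of the other arrays. No marker is at 0 on this scale, and percentiles among all probe set levels ran from 3.13 to 45.3 for the 3 B cell markers and from 2.14 to 57.2 for the 16 T and NK cell markers. The neutrophil markers S100a9 and S100a8 lay at percentiles 30.1 and 23.7. The part of these cells in the pattern was not tested.

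**Figure D5:**
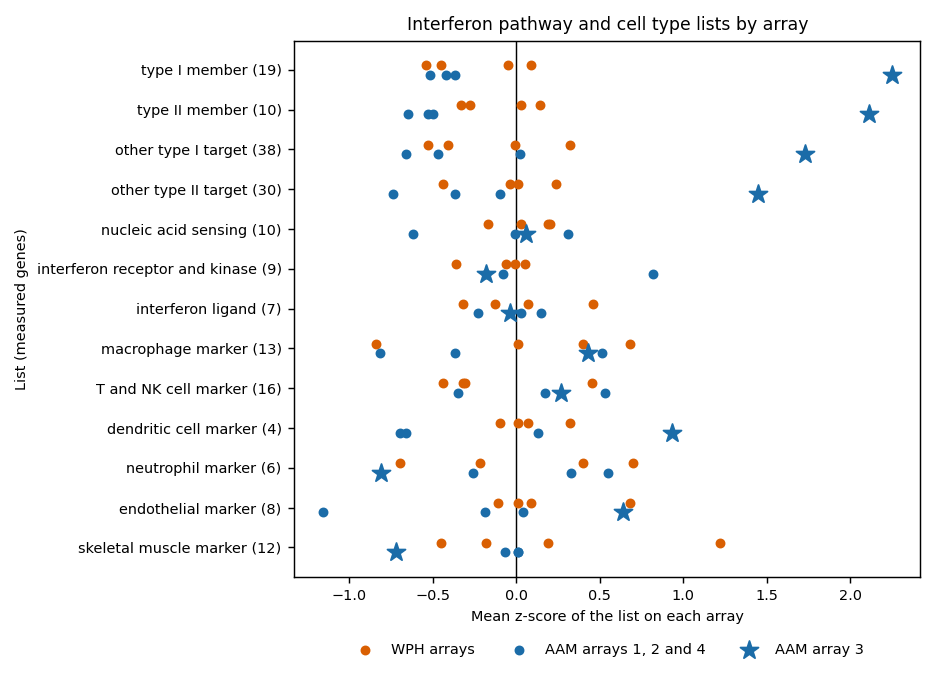
Mean z-score of each gene list (rows, measured genes in brackets) on each array, with WPH arrays in orange, AAM replicates 1, 2 and 4 as blue circles and AAM replicate 3 as a blue star. The star stands far right in the 4 rows of interferon targets, at 2.25 for type I and 2.11 for type II members, and within the other arrays or near them in the rows of ligands, receptors, sensors and most cell types.

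Outside the lists, 48 genes had a range at or above the median of the members and could be ranked by their likeness to the mean z-score of the 29 genes over the 8 arrays. The most alike were RGD1309362 (r = 0.99), Ifgga2l1 (0.99), LOC100910973 (0.99), Ly6e (0.98), RT1-T24-3 (0.96), RT1-S3 (0.96), RT1-CE16 (0.84) and Ky (0.83). On the 7 arrays without AAM replicate 3 their r was 0.88, 0.92, 0.77, 0.65, 0.82, 0.59, 0.61 and 0.54 in the same order. Of these, Ly6e encodes a membrane protein of the Ly6 family and the RT1 genes belong to the rat major histocompatibility complex. The lists do not hold every interferon target, so these genes can be targets too. RT1-T24-3 had levels of 8.1975, 8.2150, 8.1828 and 8.2055 on the WPH arrays and 8.1792, 8.1623, 8.2855 and 8.1960 on the AAM arrays. Ifgga2l1 had 6.4844, 6.4911, 6.4786 and 6.4946 on the WPH arrays and 6.4832, 6.4713, 6.5365 and 6.4776 on the AAM arrays. All 8 genes were highest in AAM replicate 3, which the choice by likeness to the members all but fixes. Near-identical copies among the RT1 genes could share probes, so their separate values are uncertain.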

How the data were processed

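Total RNA of 8 epitrochlearis muscles was hybridised to Affymetrix arrays from 100 ng per the labels' protocols. The values used were the authors' deposited log2-like levels, 1 per probe set and array. The submitters' processing notes name R 2.7.2, while the sources used here do not say how the arrays were normalized and summarised. Symbols came from the platform annotation: 20826 probe sets had 1 symbol, 436 several and 9780 none. Where a gene had several probe sets, the one with the highest mean stood for it. Of the probe sets, 57 controls were left out and 31042 tested, two-sided, by lmFit and eBayes of limma 3.58.1 under R 4.3.3 with a Benjamini-Hochberg threshold of 0.05, a procedure checked on simulated arrays. Intervals of 95% use the noncentral t distribution with 6 degrees of freedom. Exact permutation tests used the 35 splits of the arrays.

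Genes with values on every array were the 12 of widest range, and tests were named for the 4 smallest p-values. Other lists were named by up to 3 genes of widest range, and some further genes were added. The 8 most similar genes were ranked by Pearson's r. The members, the lists, the classes and the attention to AAM replicate 3 were chosen with earlier results of these data known. The number of arrays limits the precision. The alternatives were a replicate block, each array left out, quantile normalization, centring on the median, leaving out dim probe sets, array weights, a trended robust prior, ranks and the mean of all probe sets of a gene.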

Additional observations from a re-analysis of the deposited data

Results flagged for a closer look

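In 18 of 58 groups of 4 arrays (29 genes, 2 meals), 1 array stood apart from the other 3 by Dixon's ratio of the gap to the range, by more than its 95% critical value allows. Chance flags about 1 in 20 groups, or 2.9 of 58, and the genes share their arrays. The share of flagged groups over all genes was not computed. In 17 of the 18 groups the array was AAM replicate 3, and it was high. These flags restate the pattern described above and are no separate support for it. Among regulators the ratio was 0.879 for Irf7, 0.904 for Irf9 and 0.868 for Irf1. Among antiviral genes it was 0.858 for Ifit2, 0.888 for Ifit3, 0.939 for Mx1, 0.9 for Mx2, 0.935 for Oas1a, 0.912 for Oasl and 0.931 for Rsad2. For Isg15, Herc6 and Parp14 it was 0.898, 0.87 and 0.898. Among type II targets besides Irf1 it was 0.873 for Psmb8, 0.979 for Psmb9, 0.908 for Psmb10 and 0.941 for Gbp2. The remaining group was Tap1 in WPH, where replicate 3 was low with a ratio of 0.875. Irf1 is among the 17 although its highest array overall was WPH replicate 1.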

How the results depend on the processing

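No member passed the adjusted threshold under any alternative. Quantile normalization called 5 probe sets of all, none of them a member, and the other alternatives called 0. Of 29 genes, 2 were higher after WPH by means with quantile normalization, median centring, the trended robust prior, the mean of all probe sets and the replicate block, which gave a median standardized difference of -0.38 and called 0 probe sets. Array weights gave 5 higher by means, with Bst2 at 0.16 and Ifi27 at 0.13. Ranks gave 13, a median of -0.00, and Ifit2 0.19, Isg15 0.39, Bst2 0.84, Herc6 0.39, Gbp2 0.60 and Ifi27 0.60. The filter on dim probe sets left 19 genes, 15 of them higher by medians. AAM replicate 3 was highest for 26 of 29 genes with quantile normalization or median centring.

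Leaving out 1 array each gave between 1 and 26 genes higher by means, a median standardized difference between -0.70 and 0.95, between 17 and 25 genes higher by medians, 27 or 28 genes highest in AAM replicate 3, and 0 calls. The upper ends of the counts by means and of the median came without AAM replicate 3. Without 1 of WPH replicates 3 and 4 or AAM replicates 1, 2 and 4, 1 gene was higher by means. Over these fits the standardized difference ran from -0.58 to 1.02 for Ifit2, -0.60 to 1.17 for Isg15, -0.90 to 0.26 for Mx1, -0.73 to 0.70 for Irf7, -0.70 to 0.99 for Mx2, -0.45 to 2.48 for Bst2, -0.79 to 0.62 for Ifit3, -0.78 to 1.02 for Herc6, -0.63 to 0.79 for Usp18, -0.69 to 1.45 for Gbp2, -0.40 to 2.01 for Ifi27 and -1.12 to 0.36 for Ifi44. It kept its sign for Irf1 (1.66 to 3.04), Ifit1 (-3.78 to -1.50), Ifih1 (-1.03 to -0.30) and Stat2 (-1.04 to -0.11). Scaling changed the size for these genes of narrow range: with quantile normalization and median centring it was 0.50 and 1.24 for Irf1, -0.46 and -0.61 for Ifit1, -0.49 and -0.76 for Ifih1 and -1.24 and -0.76 for Stat2.

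Arrays of the same replicate number correlated in their deviations by 0.157, 0.134, 0.064 and -0.0708 for numbers 1 to 4, so the numbers were not taken as pairs. The scale of the deposited values is unknown, and no depth or signal over background can be read from them. The cause of these changes was not tested.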
